A study of Mus musculus with 34 samples.

Results

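Translation of most mRNAs starts when a set of dedicated proteins, the eukaryotic initiation factors, brings the small ribosomal subunit and the initiator tRNA to the start codon. The genes described here are those whose symbol begins with Eif followed by a digit from 1 to 6, which takes in the factors, their paralogues, the kinases that act on eIF2 and the proteins that hold back eIF4E. The rule used no measured value. It found 52 genes of the 13190 listed in at least 1 of 4 expression tables, and 50 of them in all 4. In hippocampus 51 members are listed (all but Eif4ebp1), in culture 52, and in stem cells 51 (all but Eif4e3).

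The series holds sequencing of ribosome footprints (RPF, the stretches of mRNA that ribosomes shield from nuclease) and of RNA from hippocampi of C57BL/6N mice. The 5 groups were control mice and mice taken at 1 of 4 times (5 min, 10 min, 30 min, 4 h) past contextual fear conditioning, for which a mouse explored a chamber for 148 s and then received a foot shock of 2 s. All mice were caged singly and handled beforehand, and each group has 3 replicates of each kind of library. Primary cultures of hippocampus (strain C57BL/6N) and embryonic stem cells of the line A3-1 (ESC), which had been treated for 48 h with a siRNA against luciferase, gave 1 library of each kind. The labels state neither ages nor whether replicates are separate or pooled mice, so p-values refer to variation among these libraries and part of it may be technical. Lysates held cycloheximide, a drug that stops ribosomes on the mRNA.

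Initiation is the step at which cells set much of their protein output, and it has 2 main points of control. The eIF4F complex (the cap-binding protein eIF4E, the scaffold eIF4G and the helicase eIF4A) opens the mRNA's 5′ end, and 4E-binding proteins take eIF4E away from it. The GTPase eIF2 carries the initiator tRNA, is recharged by eIF2B and is switched off when 1 of 4 kinases phosphorylates its alpha subunit, a switch known to affect the formation of lasting memories in the hippocampus.

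Values are given as a signal, a read number scaled by a single divisor for each library and not expressed per length. A signal is therefore compared for 1 gene between libraries, not between genes. Tissue RPF libraries held 14240563 to 30480009 reads on listed genes and tissue RNA libraries 16814796 to 25515210. The member with the fewest reads in a tissue RPF library was Eif2ak2 (71), and in a tissue RNA library Eif4ebp2 (89). Markers went with the labels: 5 of 5 markers of excitatory neurons were listed in hippocampus and culture and 1 of 5 in ESC, while 7 of 7 pluripotency markers were listed in ESC and 0 of 7 in hippocampus or culture. In bulk libraries, fewer cells of a type and less RNA per cell cannot be told apart.

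After conditioning no initiation factor passed the test for a change in footprints, RNA or their ratio. A mean signal of at least 1 over the 15 libraries left 48 members in RPF and 45 in RNA, and 44 had it in both. Of these 48, 45 and 44 members, 0 passed the threshold of 0.05 at any of the 4 times in limma, adjusted over all genes by Benjamini-Hochberg, and the same test called 0% of all genes in each comparison. At an unadjusted p under 0.05, 0 members were counted in RPF at each time, 1 in RNA at each time, and 1, 1, 0 and 1 in the footprint-to-RNA ratio at 5 min, 10 min, 30 min and 4 h. A fit of the whole reads with limma's voom also called 0 members, with 0 at an unadjusted p under 0.05. With the replicate number as a block, limma again called 0 members in each comparison, and at an unadjusted p under 0.05 it counted 1, 0, 0 and 3 in RPF, 3, 2, 2 and 6 in RNA, and 2, 2, 1 and 6 in the ratio at the 4 times in order. That fit called 0.0506% of all genes in RPF at 30 min, 0.0372%, 0.0248%, 0.0248% and 0.0124% in RNA at 5 min, 10 min, 30 min and 4 h, 0.0141% in the ratio at 5 min, and in its F-test over all times 0.076% in RPF and 0.062% in RNA. No share of all genes is given beside the counts at an unadjusted p under 0.05, so these counts are not read as a result about the members. A p that misses the threshold does not show that levels were equal.

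The changes were small as well as uncalled. On the log2(signal + 1) scale, which understates changes of genes with low signals, member changes over the 4 times ran from -0.15 to 0.09 in RPF, from -0.10 to 0.18 in RNA, and from -0.20 to 0.10 in the ratio. The median half-width of a member's 95% interval was 0.16 in RPF, 0.15 in RNA and 0.23 in the ratio, and with the replicate block 0.10, 0.095 and 0.13. Without the block the bounds of the members' intervals lay between -0.67 and 0.67 in RPF, -0.46 and 0.46 in RNA, and -0.79 and 0.74 in the ratio.

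**Figure D1:**
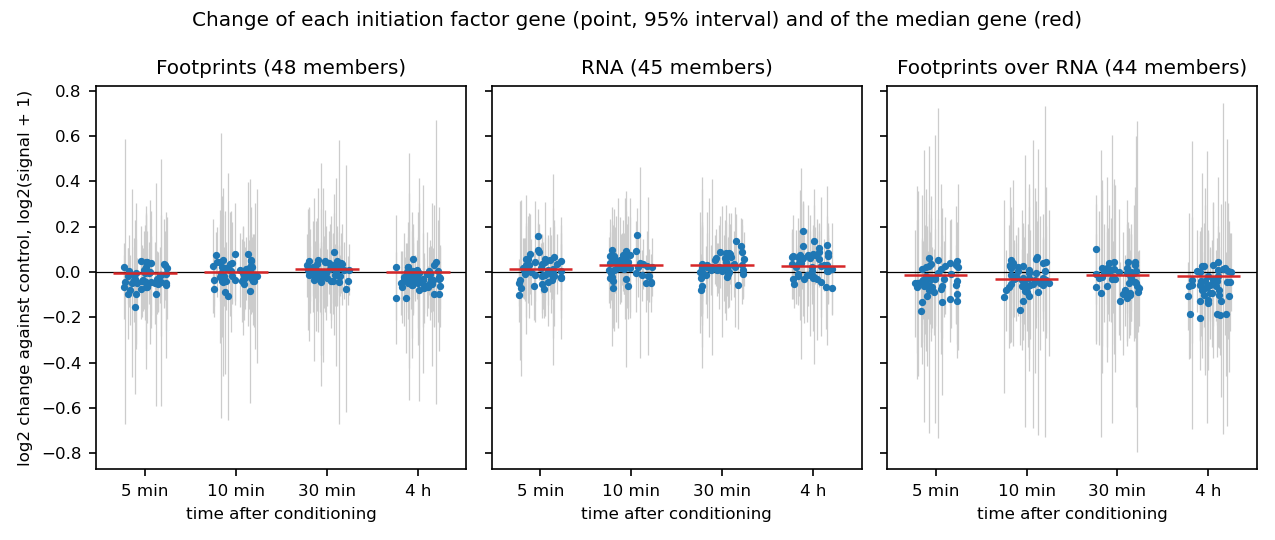
Log2 change of each member against control hippocampus (y axis, log2(signal + 1) scale) at 4 times after conditioning (x axis), for footprints, RNA and their ratio. Blue points are members with their 95% interval from limma, and red bars are the median of all genes tested. Points lie between -0.20 and 0.18, and the red bars lie close to 0.

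The median member changed by -0.04, -0.02, 0.00 and -0.03 in RPF at 5 min, 10 min, 30 min and 4 h, beside 0.00, 0.00, 0.01 and 0.00 for the median of all genes. In RNA the median member changed by 0.01, 0.03, 0.02 and 0.03, beside 0.01, 0.03, 0.03 and 0.03 for all genes. In the ratio it changed by -0.04, -0.03, -0.01 and -0.06, beside -0.01, -0.03, -0.02 and -0.02. The sign of these medians depends on the scaling. With voom all 4 RNA medians and all 4 RPF medians were negative, and the ratio's were positive at 10 and 30 min. With scaling to the median gene the RNA medians were negative at 5 and 30 min, the RPF median was negative at 30 min, and the ratio's were positive at 10 and 30 min.

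As a yardstick, the summed RPF signal of 6 activity-regulated genes (Arc, Fos, Egr1, Npas4, Junb and Nr4a1) was 15.9 to 16.8 in the 3 control libraries. It was 15.6 to 19.8 in those at 5 min, 19.8 to 25.2 at 10 min, 25.7 to 26.7 at 30 min and 13.5 to 15.95 at 4 h. Limma without the block called 0 of 7898 genes in RPF at each time, so it called none of these 6 genes either. Fos and Npas4 fell below its filter on mean signal. The sum thus shows a rise that this test, the one used for the members, did not call gene by gene.

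The genes of the eIF2 switch were among those not called. Eif2s1, which encodes eIF2 alpha, the subunit that the kinases phosphorylate, had RPF signals of 2.97, 2.59 and 2.34 in control and a mean of 2.63 ± 0.32 (SD, n = 3). The kinases Eif2ak1 (the heme-regulated HRI), Eif2ak3 (PERK, of the endoplasmic reticulum) and Eif2ak4 (GCN2, the sensor of amino acid shortage) had control means of 4.56 ± 0.37, 2.37 ± 0.24 and 1.14 ± 0.10 (SD, n = 3). Eif2ak2 (PKR, activated by double-stranded RNA) had 0.442 ± 0.069 (SD, n = 3) and was too low to be tested in either kind of library. These are abundances of footprints and mRNA, and the phosphorylation of eIF2 alpha was not measured.

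On the higher side in RPF, the binding protein Eif4ebp2 had the smallest unadjusted p at 5 and 10 min. Its RPF signal was 1.19, 1.34 and 1.28 in control and its log2 change was 0.05 ± 0.05 (SE) at 5 min and 0.07 ± 0.05 at 10 min. Next on the higher side were Eif2ak4 (0.05) and Eif2ak3 (0.05) at 5 min, Eif2s3x (0.05) and Eif3f (0.08) at 10 min, Eif3e (0.09), Eif1ax (0.05) and Eif2b2 (0.04) at 30 min, and Eif2ak3 (0.06), Eif2ak4 (0.02) and Eif4e (0.02) at 4 h. On the lower side stood Eif2b4 (-0.07), Eif2s3y (-0.07) and Eif3k (-0.08) at 5 min, Eif2d (-0.07), Eif2b4 (-0.03) and Eif1ad (-0.05) at 10 min, Eif4e2 (-0.04), Eif1a (-0.04) and Eif2b1 (-0.04) at 30 min, and Eif2s3y (-0.10), Eif2b4 (-0.07) and Eif2b1 (-0.10) at 4 h. Of these 24 changes 0 had an adjusted p under 0.999 in limma.

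In RNA the smallest unadjusted p at 5 and 10 min belonged to Eif5, the factor that triggers GTP hydrolysis on eIF2 at the start codon. Its RNA signal was 19.4, 19.2 and 17.8 in control, 21.6, 21.3 and 20.3 at 5 min, 21.4, 20.9 and 21.2 at 10 min, 19.8, 20.0 and 18.9 at 30 min, and 20.2, 19.8 and 18.9 at 4 h. The log2 change was 0.16 ± 0.06 (SE) at both 5 and 10 min, with unadjusted p = 0.014 and 0.0114 in limma. With the replicate block the adjusted p was 0.654 at 5 min and 0.231 at 10 min, again not past the threshold.

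Eif1ax, which encodes the scanning factor eIF1A from the X chromosome, had RNA signals of 5.53, 5.43 and 4.93 in control and 6.39, 6.19 and 5.81 at 4 h. The log2 change was 0.18 ± 0.06 (SE) with unadjusted p = 0.00633 in limma. With the replicate block the adjusted p of limma was 0.0921, the smallest of any member at any time in that fit. At 30 min the change of Eif1ax was 0.14 ± 0.06 and at 5 min 0.10 ± 0.06.

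The other RNA changes of this kind were smaller. They were Eif2a (0.09) at 5 min, Eif3e (0.10) and Eif2ak1 (0.09) at 10 min, Eif2a (0.11) and Eif4enif1 (0.09) at 30 min, and Eif2s3x (0.10) and Eif2a (0.12) at 4 h. On the lower side stood Eif3i (-0.10), Eif3l (-0.08) and Eif1ad (-0.05) at 5 min, Eif1a (-0.05), Eif6 (-0.07) and Eif2s3y (-0.06) at 10 min, Eif2b1 (-0.08), Eif3l (-0.06) and Eif3k (-0.06) at 30 min, and Eif3i (-0.07), Eif1ad (-0.05) and Eif1a (-0.03) at 4 h. Their adjusted p in limma was not under 0.999.

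In the footprint-to-RNA ratio the smallest unadjusted p again belonged to Eif5 at 5 and 10 min (-0.17 ± 0.08 at both, SE) and to Eif1ax at 4 h (-0.19 ± 0.09). These are the genes whose RNA stood highest, and the ratio has that RNA as its denominator. Beside them on the lower side were Eif2a (-0.13) and Eif2b5 (-0.12) at 5 min, Eif2ak1 (-0.13) and Eif3j1 (-0.11) at 10 min, Eif4e2 (-0.13), Eif4enif1 (-0.10) and Eif2a (-0.11) at 30 min, and Eif3j1 (-0.19) and Eif2a (-0.19) at 4 h. On the higher side the changes were no more than 0.10: Eif2ak4 (0.06), Eif1ad (0.05) and Eif4h (0.05) at 5 min, Eif1a (0.07), Eif6 (0.05) and Eif3m (0.06) at 10 min, Eif3k (0.10), Eif2b1 (0.05) and Eif3m (0.04) at 30 min, and Eif3i (0.03), Eif3g (0.03) and Eif5a (0.04) at 4 h.

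Other genes of the pathway were read from the same fit. Of a list of 37, which holds Mtor, its scaffold Rptor, the S6 kinases, the eIF4E kinases, poly(A)-binding proteins with their partners and eIF2 alpha phosphatase subunits, 29 were tested in RPF, 31 in RNA and 28 in the ratio. Limma called 0 of them at any time, also with the replicate block; at an unadjusted p under 0.05 it counted 1, 0, 1 and 0 in RPF, 0, 1, 0 and 0 in RNA, and 1, 0, 0 and 0 in the ratio at the 4 times in order. With the block these counts were 6, 1, 1 and 2 in RPF, 0, 3, 5 and 1 in RNA, and 4, 2, 0 and 4 in the ratio. No share of all genes is given beside them, so they are not read as a result about the listed genes. The smallest unadjusted p in RPF was that of Mknk1, an eIF4E kinase, at 5 min, with a log2 change of -0.14. In RNA it was that of Gigyf2, a partner of the cap-binding protein 4EHP, at 10 min, with a change of 0.17, and in the ratio that of Mcts1, a factor of ribosome recycling and reinitiation, at 5 min, with a change of -0.21.

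What did set libraries apart was the replicate number, which the labels share between groups and between RPF and RNA. An F-test in limma called 32 of 48 members in RPF, beside 73.1% of all genes, and 29 of 45 in RNA, beside 65.5% of all genes. The members' share is thus close to that of all genes. The median range between the means of the 3 numbers was 0.13 in RPF and 0.13 in RNA on the log2(signal + 1) scale, beside 0.17 and 0.13 for all genes.

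The 5 widest ranges in RPF were those of Eif4g1, Eif4g3, Eif3c, Eif3a and Eif3d. Eif4g1, the main scaffold eIF4G1, had RPF signals of 5.62 to 6.74 in the 5 libraries with number 1, 3.23 to 4.10 with number 2 and 2.85 to 3.44 with number 3 (adjusted p = 1.07e-08 in limma). Its paralogue Eif4g3 had mean RPF signals of 5.30, 3.45 and 3.01 in numbers 1, 2 and 3, and Eif3c 9.57, 6.03 and 6.59. Eif3a, the largest subunit of eIF3, had 10.5, 7.15 and 7.72, and Eif3d, a subunit that can itself bind the cap, 3.28, 2.15 and 2.35.

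The libraries with number 1 were the highest for each of these 5 genes, and those ranges do not overlap with numbers 2 and 3. As the 5 were picked for their wide ranges, the lack of overlap follows largely from that choice. The share of all genes without overlap was not computed. In RNA the 5 widest ranges were those of Eif3a (8.37, 5.94 and 5.55), Eif3c (5.71, 3.74 and 4.602), Eif4g1 (6.24, 4.86 and 4.49), Eif4g3 (4.54, 3.97 and 3.30) and Eif3f (4.00, 4.28 and 5.35), as means of numbers 1, 2 and 3. Eif3f was thus highest in number 3. Eif1, which guards start codon choice, ran the other way in RPF, with means of 37.8, 45.6 and 47.3.

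**Figure D2:**
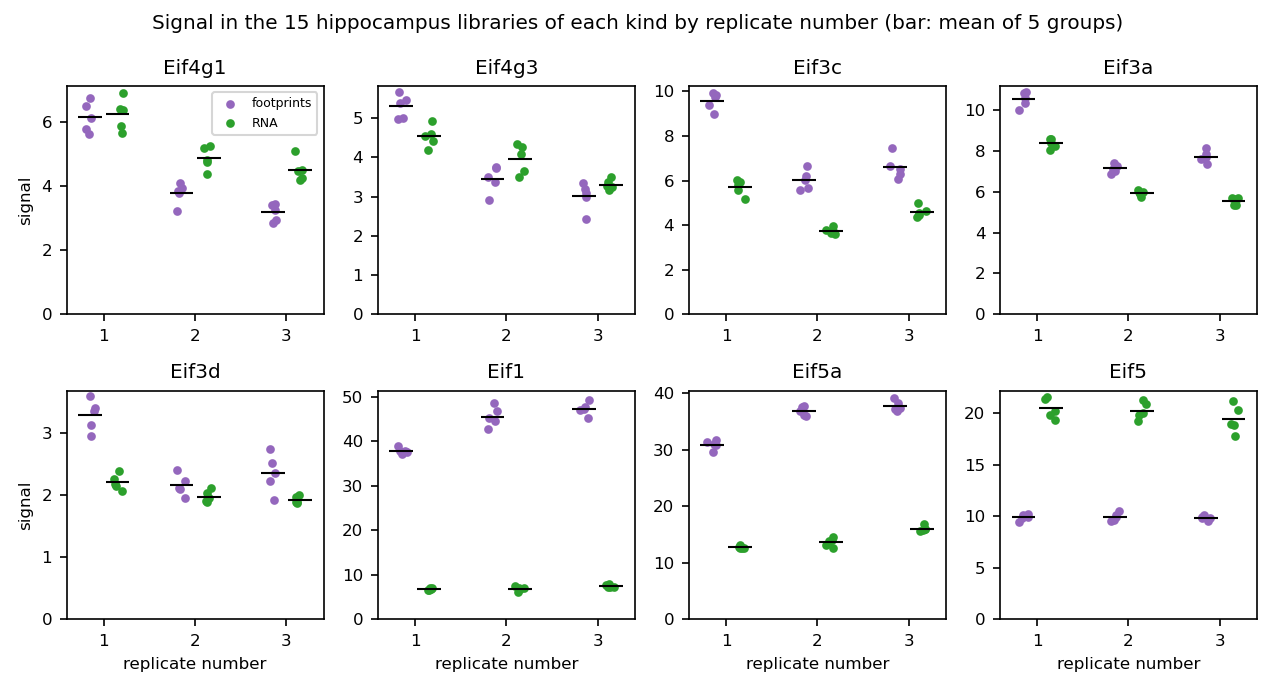
Signal (y axes, from 0) of 8 members in the 15 hippocampus libraries of each kind, by replicate number (x axes). Purple points are footprints, green points RNA, and bars the mean of 5 groups. Eif4g1, Eif4g3, Eif3c, Eif3a and Eif3d were highest with number 1, Eif1 and Eif5a footprints lowest, and Eif5 footprints level.

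Other members hardly moved with the number. In RPF the narrowest ranges were those of Eif5 (means of 9.88, 9.94 and 9.82, adjusted p = 0.929 in limma), Eif4enif1, the eIF4E transporter (1.92, 1.88 and 1.94), and Eif4e2, the cap-binding repressor 4EHP (1.97, 1.96 and 2.04). In RNA they were those of Eif1a (2.83, 2.79 and 2.80), Eif3e (10.3, 10.6 and 10.5) and Eif2s3x (15.7, 16.1 and 16.05). Of the 32 members called in RPF, 15 were highest in number 1, 5 in number 2 and 12 in number 3. The same split was not computed for all genes called, so it is not read as particular to the members. Markers of choroid plexus, the epithelium of the ventricles, moved with the number too: all 7 of 7 were listed, and their summed RPF signal averaged 1571, 1366 and 230.3 in numbers 1, 2 and 3. The astrocyte list (4 of 4) averaged 343.5, 281.4 and 292.5, and the microglia list (4 of 4) 53.4, 39.1 and 44.1. Their part in the members' differences was not tested.

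Beyond time and number, the factors differed widely in their standing footprint-to-RNA ratio. The ratio was taken on the log2 scale, with no pseudocount, and set to 0 at the median of 4153 genes that were listed in all tables with a signal of at least 1 in every source. Same-numbered RPF and RNA libraries were paired. The sources used here do not say which part of a transcript the reads of each kind were counted over, so the order of genes in this ratio can also hold the share of untranslated sequence. A difference of 1 gene between sources holds it less, unless the transcript form differs.

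In control hippocampus the members spread from -2.43 to 2.57, with a median of -0.04 over 51 genes. The 4153 genes had 5% below -1.48 and 5% above 1.31. The SD of a member over the 3 replicate numbers was 0.15 at the median and at most 0.38, so the spread between members is far larger than that between replicates. In all, 23 members lay above the median gene and 28 below.

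Eif1 had the highest ratio. Its values in the 3 control pairs were 2.43, 2.66 and 2.63, a mean of 2.57 ± 0.13 (SD, n = 3) or 5.94 times the median gene. Eif4ebp2, the 4E-binding protein that prevails in brain, had 1.72 ± 0.15, but 0.68 with a pseudocount of 1 on both signals. Eif3g, an RNA-binding subunit of eIF3, had 1.53 ± 0.16. Eif2b2, the beta subunit of eIF2B, had 1.28 ± 0.21, and Eif5a, the hypusine-bearing factor that helps ribosomes through slow peptide bonds, 1.23 ± 0.10 (SD, n = 3 for each). From Eif4ebp2 to Eif5a, neighbours in this order do not differ beyond their spread. With that pseudocount Eif4ebp2 fell below Eif3g, Eif5a, Eif3b, Eif1b, Eif3f and Eif2b2, and Eif2b2 had 0.72.

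At the low end stood Eif4b, the RNA-binding cofactor that stimulates eIF4A. Its values were -2.19, -2.44 and -2.65, a mean of -2.43 ± 0.23 (SD, n = 3), which is 5.38 times below the median gene. Eif5a2, the paralogue of Eif5a, had -2.35 ± 0.10 and Eif4e3, a divergent member of the eIF4E family, -2.17 ± 0.18, and these 3 do not differ beyond their spread. With a pseudocount of 1 on both signals Eif4b had -2.14, Eif5a2 -1.94 and Eif4e3 -1.27. Eif1a, the autosomal eIF1A gene, had -1.34 ± 0.15 and Eif2s3x, the X-linked eIF2 gamma gene, -1.30 ± 0.04 (SD, n = 3 for each). Their paralogues Eif1ax (0.62 ± 0.08) and Eif2s3y (-0.41 ± 0.10) lay higher, but near-identical copies can share reads, and the labels do not say how such reads were assigned.

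By role, the 10 genes of eIF4F and its cofactors had a median of -0.39 and 9 of them lay below the median gene; the exception was the helicase Eif4a1 at 0.45 ± 0.05. The 5 subunits of eIF2B had a median of 0.86, with 4 above 0 and the catalytic subunit Eif2b5 at -0.87 ± 0.06. The 13 subunits of eIF3 had a median of 0.33, with 8 above 0, and spread from Eif3e at -1.04 to Eif3g at 1.53 although they serve 1 complex. The 4 eIF2 alpha kinases had a median of -0.59, and Eif2ak1 alone lay above 0, at 0.44 ± 0.12.

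**Figure D3:**
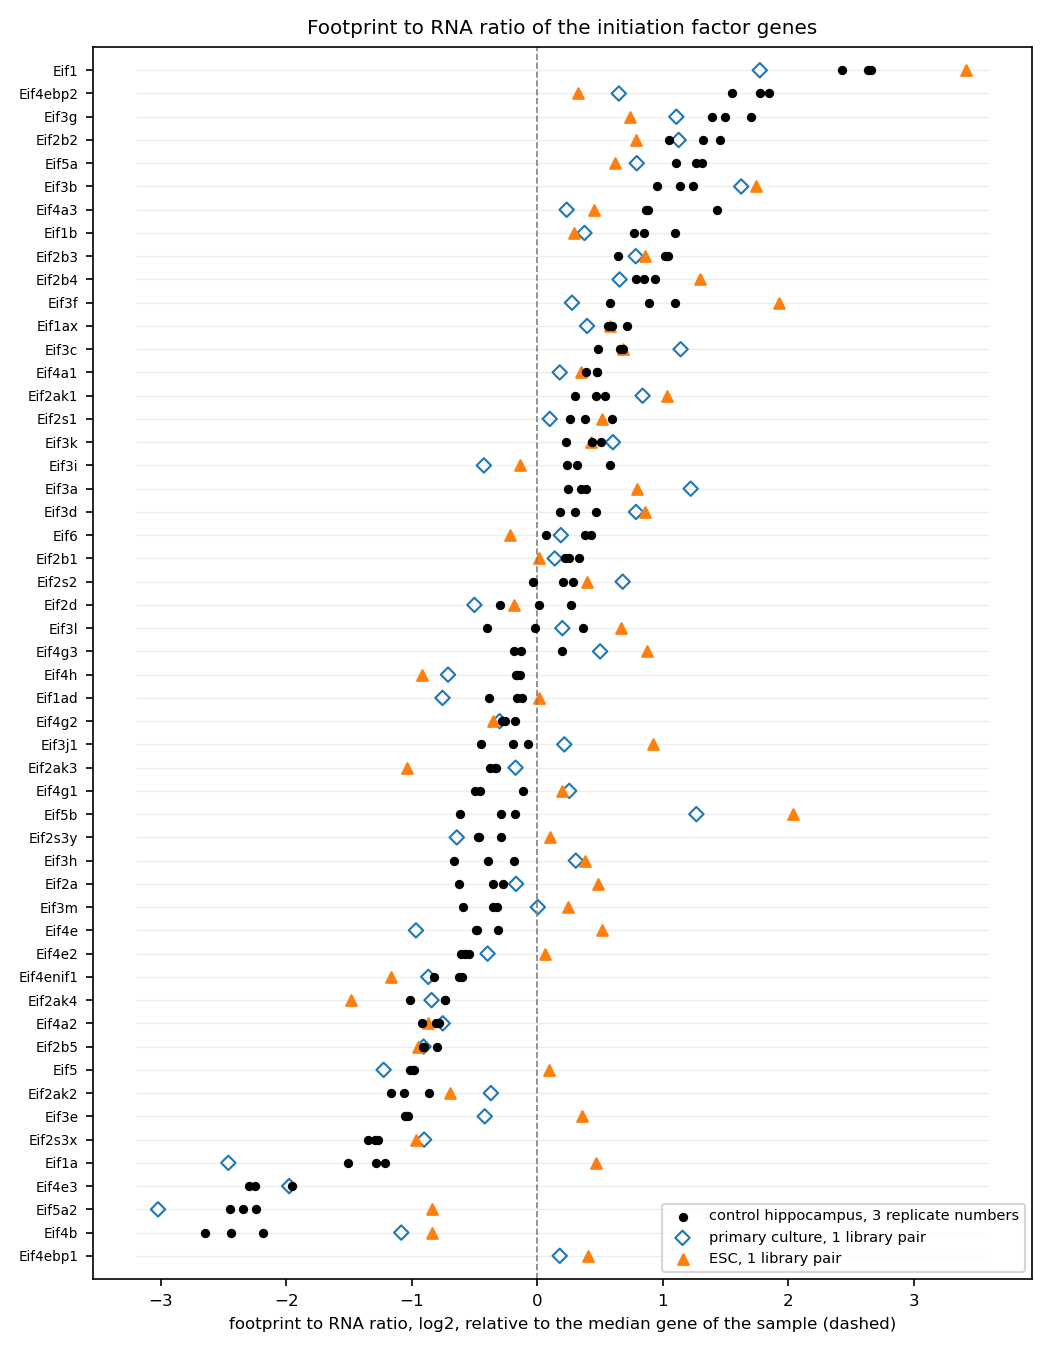
Footprint-to-RNA ratio of each member on the log2 scale, relative to the median gene of the same sample (x axis, dashed line at 0), in order of the control mean (y axis). Black points are the 3 control pairs, diamonds the culture and triangles ESC. Control points of a gene lie close together, and Eif5b, Eif4b and Eif1a show wide shifts between sources.

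Between sources, some factors kept their ratio and others differed by several times the replicate spread. With 1 library pair in culture and in ESC there is no test of these differences; 95% intervals for single pairs are exact binomial, cover counting error only, and the 15 tissue pairs give a range to read them against. The 39 members among the 4153 genes had a median ratio of -0.16 in control, 0.14 in culture and 0.36 in ESC. Of them 22 lay above the median gene in culture and 27 in ESC, beside 17 in control.

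In ESC 6 of the 39 members had a ratio more than 2-fold above control (15.4%), beside 10.3% of the 4153 genes, and 0 were more than 2-fold below, beside 7.42%. In culture 2 were more than 2-fold above (5.13%), beside 2.75% of the genes, and 0 below, beside 0.987%. The 39 hold only members with a signal of at least 1 in every source. Over all members with values, 8 of 50 were more than 2-fold above in ESC and 1 below (Eif4ebp2). In culture 2 of 51 were above and 2 below (Eif1a and Eif4ebp2). ESC lay above the range of the 15 tissue pairs for 21 of the 39 (36.2% of all genes did) and below it for 9 (42% of all genes did). Culture lay above that range for 16 (29.5% of all genes) and below it for 12 (36.6% of all genes).

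Eif5b, the GTPase that joins the large subunit to the small one, differed most from control in both culture and ESC. Its ratio was -0.29, -0.62 and -0.18 in the control pairs and between -0.78 and -0.16 in all 15 tissue pairs. It was 1.27 in culture (95% interval 1.09 to 1.45) and 2.04 in ESC (1.96 to 2.11), which is 3.09 and 5.28 times the control mean. Its RNA level relative to the median gene was 0.992 times that of control in culture and 2.46 times in ESC, while its footprint level was 3.11 and 12.9 times.

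Eif4b moved in the same direction. From -2.43 in control it stood at -1.08 in culture (95% interval -1.17 to -0.9996) and -0.84 in ESC (-0.87 to -0.81), or 2.54 and 3.01 times the control ratio. The culture had an Eif4b RNA level 0.722 times that of control and a footprint level 1.84 times. Eif3e, a subunit of eIF3, had -1.04 ± 0.01 (SD, n = 3) in control, -0.42 in culture and 0.36 in ESC, and in both cases lay above the 15 tissue pairs.

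Eif1a and Eif5 were higher in ESC and lower in culture: Eif1a had -1.34 in control, -2.46 in culture and 0.47 in ESC, and Eif5 had -0.998, -1.22 and 0.10. The 95% interval of Eif5 in culture (-1.30 to -1.15) overlaps the tissue pairs, which reached -1.20. Eif5a2 had -0.84 in ESC against -2.35 in control, but from 159 RPF and 80 RNA reads (95% interval -1.24 to -0.44). Eif3f and Eif3j1 passed 2-fold in ESC as well, at 1.92 against 0.85 and at 0.92 against -0.24.

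On the lower side, Eif4ebp2 had a ratio of 1.72 in control, 0.65 in culture (95% interval 0.18 to 1.14) and 0.32 in ESC (0.11 to 0.54). It rests on 48 RNA reads in culture and 220 in ESC. Eif3g had 0.74 in ESC, Eif4h, a cofactor of eIF4A related to Eif4b, -0.92 against -0.16 in control, and the kinases Eif2ak3 and Eif2ak4 -1.04 and -1.48 against -0.35 and -0.83. In culture the lower members were Eif1a, Eif4ebp2, Eif4a3, the helicase of the exon junction complex (0.23 against 1.06), Eif1 (1.77 against 2.57) and Eif3i (-0.43 against 0.37). Higher in culture were Eif3a (1.22 against 0.33), Eif3h (0.31 against -0.41) and Eif2ak2 (-0.37 against -1.03). That of Eif2ak2 rests on 160 RPF and 86 RNA reads, and its 95% interval (-0.76 to 0.025) overlaps the tissue pairs, which reached -0.66. With a pseudocount of 1 on both signals Eif2ak2 had -0.18 in culture against -0.42 in control.

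Several members had nearly the same ratio in all sources. Eif4a2 had -0.84 ± 0.07 (SD, n = 3) in control, -0.75 in culture and -0.87 in ESC, and Eif2b5 had -0.87 ± 0.06, -0.91 and -0.95. Eif4g2, an eIF4G relative that does not bind eIF4E, had -0.24 ± 0.05, -0.30 and -0.35, just below the range of the tissue pairs in both. Eif4ebp1 had 0.18 in culture and 0.41 in ESC, but it was not listed in hippocampus and has no control ratio to compare.

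Gene starts of some members are shown from the RefSeq promoter table (build GRCm38.p6), which matched 43 of the 52 members. Many mRNAs of the translation machinery begin with a C followed by a run of C and T, the 5′ terminal oligopyrimidine (TOP) motif, through which the kinase mTOR controls their translation. A TOP-like start was scored as a C at the annotated start or within 5 bases of it, followed by at least 4 bases that are each C or T, on the strand of the gene. Each line below gives 10 bases before the annotated start and 20 bases from it on, 5′ to 3′, with the TOP-like run in capitals. The first 3 hold a run and are shown for its form, and the last 3 belong to the highest ratio (Eif1), the lowest (Eif4b) and the largest difference from control (Eif5b, in ESC).
Eif3f: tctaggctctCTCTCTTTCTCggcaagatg
Eif2s3x: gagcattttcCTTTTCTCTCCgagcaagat
Eif2s3y: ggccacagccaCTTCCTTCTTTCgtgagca
Eif1: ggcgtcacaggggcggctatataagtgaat
Eif4b: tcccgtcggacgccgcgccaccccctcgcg
Eif5b: ctgggttcccacctggccggcggctctact

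They lie at chr7:108934405-108934434 on the plus strand (Eif3f), chrX:94212632-94212661 on the minus strand (Eif2s3x), chrY:1010585-1010614 on the plus strand (Eif2s3y), chr11:100319939-100319968 on the plus strand (Eif1), chr15:102073763-102073792 on the plus strand (Eif4b) and chr1:37998000-37998029 on the plus strand (Eif5b). A TOP-like start was found in 13 of 43 members (30.2%), in 23.7% of 9936 listed genes with an entry, in 18.3% of all 32851 promoter windows and in 45% of 60 ribosomal protein genes. The 13 members were Eif1ad, Eif2ak1, Eif2ak3, Eif2ak4, Eif2b2, Eif2b5, Eif2s3x, Eif2s3y, Eif3b, Eif3f, Eif3l, Eif4enif1 and Eif4g1. Their median ratio was -0.35 in control and 0.10 in ESC, beside 0.21 and 0.44 for the 30 without such a start, and the median difference between ESC and control was 0.34 and 0.29. A match describes these letters only, and a missing match says nothing about regulation. The score rests on the annotated start, so the 30 can include TOP mRNAs that it missed. These medians therefore do not compare TOP mRNAs with others.

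In amount, most of the factors were at a higher level in ESC. Levels were set relative to the median of the same 4153 genes in each library. Of the 39 members, 28 had a footprint level more than 2-fold above control hippocampus in ESC (71.8%), beside 28.1% of all genes, and 2 more than 2-fold below, beside 28%. In RNA 26 were more than 2-fold above (66.7%), beside 27.4%, and 1 below, beside 27.5%. In culture 10 were above in footprints (25.6%), beside 8.24%, and 1 below, beside 8.6%; in RNA 6 were above (15.4%), beside 5.56%, and 1 below, beside 6.79%. The 39 leave out members with a signal under 1 in any source, among them some that were low in ESC or culture. Over all members with values, 35 of 50 were above and 5 below in ESC footprints, and 32 and 4 in RNA. In culture 11 of 51 were above and 5 below in footprints, and 7 and 2 in RNA. No share of all genes without that filter is given beside these counts. These comparisons rest on 1 library of each kind per source and have no test.

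**Figure D4:**
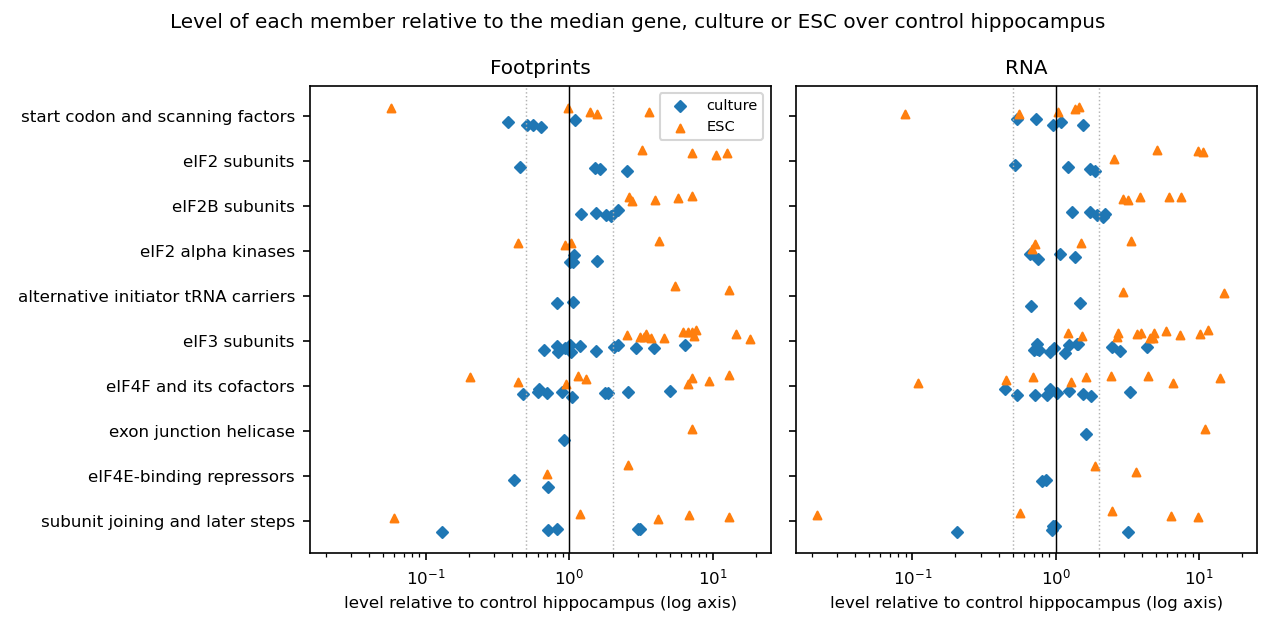
Level of each member relative to the median gene, in culture (diamonds) or ESC (triangles) over control hippocampus, on a log axis (x), by role (y), for footprints and RNA. Dotted lines mark 2-fold either way. The eIF2, eIF2B and eIF3 subunits of ESC lie to the right of the upper line in footprints, and members far to the left include Eif1b and Eif5a2.

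The subunits of eIF3, eIF2 and eIF2B stood together in this. In ESC footprints all 13 subunits of eIF3 were more than 2-fold above control, from 2.54 times (Eif3f) to 18.03 times (Eif3l), as were 4 of 4 eIF2 subunits, from 3.19 to 12.4 times, and 5 of 5 eIF2B subunits, from 2.61 to 7.21 times. Genes of eIF4F, the scanning factors and the kinases did not follow as groups. Of 9 genes of eIF4F and its cofactors, 4 were more than 2-fold above control and 2 more than 2-fold below, with a median of 1.31 times. Of 5 start codon and scanning factors, 1 was above and 1 below, with a median of 1.39 times. Of 5 genes of subunit joining and later steps, 3 were above and 1 below, while Eif2a, Eif2d and Eif4a3 were all above. Of the 4 eIF2 alpha kinases, Eif2ak2 was 4.196 times control, Eif2ak1 1.02, Eif2ak4 0.936 and Eif2ak3 0.437 times. In RNA 11 of 13 eIF3 subunits passed 2-fold, and the others were Eif3f at 1.21 times and Eif3j1 at 1.53 times. Their raised footprint-to-RNA ratio in ESC follows from these levels and is not a separate observation. Eif6, which keeps the large subunit from joining too early, was at 6.82 times in ESC footprints and 3.02 times in culture.

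In culture the eIF3 subunits divided. Eif3c was 6.35 times control in footprints, Eif3d 3.89, Eif3l 2.89, Eif3a 2.18 and Eif3b 2.03 times, and the other 8 lay between 0.662 and 1.53 times. Eif4g1 was 5.05 times control in culture and 9.42 times in ESC. Culture and hippocampus differ in cell types: the summed RPF signal of 4 oligodendrocyte markers was 218.5 to 320.9 in tissue libraries and 0.839 in culture, where 2 of 4 were listed, and that of 4 astrocyte markers was 239.7 to 366.7 and 146.4. Their part in these levels was not tested.

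The balance between paralogues of a factor differed between sources. The signal of the one over that of the other is given for each source. As the signal is not per length, such a ratio does not say which of a pair is the more abundant, and only its difference between sources is read. Eif4a1 over Eif4a2, the helicases of eIF4F, was 0.711, 0.704 and 0.675 in control footprints, 1.53 in culture (95% interval 1.47 to 1.58) and 20.5 in ESC (20.2 to 20.9). In RNA it was 0.286 ± 0.010 (SD, n = 3), 0.8004 and 8.86.

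**Figure D5:**
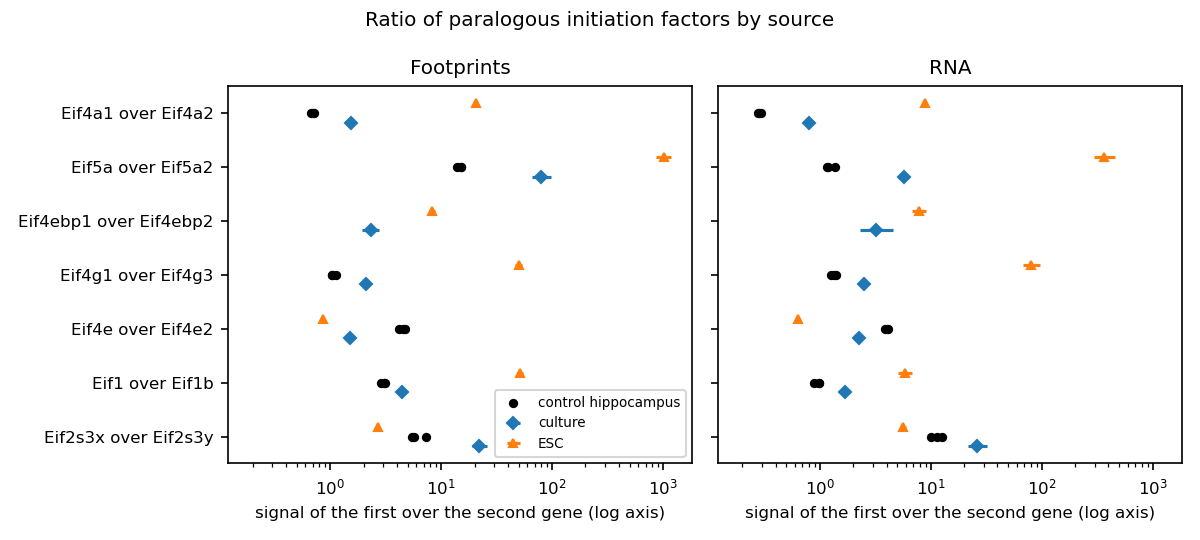
Signal of 1 paralogue over the other (x axis, log scale) for 7 pairs (y axis), in footprints and RNA. Black points are the 3 control hippocampus libraries, diamonds the culture and triangles ESC, with 95% exact binomial intervals for the single libraries. In 4 pairs with control values the order is hippocampus, culture, ESC from left to right, Eif4e over Eif4e2 runs the other way, and Eif2s3x over Eif2s3y is highest in culture.

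Eif5a over Eif5a2 had the widest span. It was 14.7 ± 0.7 (SD, n = 3) in control footprints, 80.2 in culture and 1009 in ESC (95% interval 864 to 1187), and 1.24 ± 0.11, 5.70 and 366 in RNA. Eif5a2 had a footprint level 0.0604 times that of control in ESC and 0.129 times in culture. Eif4g1 over Eif4g3 was 1.07 ± 0.05 in control footprints, 2.12 in culture and 49.9 in ESC, with Eif4g3 at 0.203 times control in ESC footprints.

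Eif1 over Eif1b was 3.02 ± 0.13 (SD, n = 3) in control footprints, 4.48 in culture and 51.2 in ESC. The footprint level of Eif1b was 0.374 times control in culture and 0.0574 times in ESC, and that of Eif1 0.556 and 0.9751 times. Eif4e over Eif4e2, the cap-binding activator over the cap-binding repressor 4EHP, was 4.47 ± 0.30 (SD, n = 3) in control footprints, 1.52 in culture and 0.864 in ESC. Eif4e2 was 1.78 times control in culture and 6.76 times in ESC, and Eif4e 0.602 and 1.31 times.

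Eif4ebp1 over Eif4ebp2, the 4E-binding proteins, could be set side by side in the cells only, at 2.31 in culture footprints (95% interval 1.94 to 2.77) and 8.24 in ESC (7.72 to 8.82). Eif2s3x over Eif2s3y, the X-linked and Y-linked copies of eIF2 gamma, was 6.15 ± 0.99 (SD, n = 3) in control footprints, 22.0 in culture and 2.71 in ESC. The labels do not state the sex of the animals or cells, and shared reads between these copies limit the pair. Over the 15 tissue libraries Eif4a1 over Eif4a2 ranged from 0.661 to 0.739 in footprints and from 0.222 to 0.321 in RNA, and Eif4g1 over Eif4g3 from 0.9503 to 1.21 and from 1.11 to 1.52.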

How the data were processed

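Per the submitters' processing notes, reads were processed with CASAVA 1.8.2 and Bowtie 1.1.1 and the build mm9. The authors deposited 1 value per gene and library whose unit the headers do not name, here called signal: each is a whole number of reads (within 0.001) divided by 1 number per library. Counting rules, the region counted and strand are unstated in the sources used here.

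Members and lists were chosen with earlier results of these data known. Limma 3.58.1 (R 4.3.3) was fitted to log2(signal + 1), the 5 groups sharing 1 unblocked model, over genes whose mean signal reached 1 (7898 in RPF, 8061 in RNA, 7103 for the interaction of both kinds). Tests were 2-sided, p-values were adjusted by Benjamini-Hochberg across the genes tested, and the script was tested on simulated data. Named members were, per time comparison, the 3 with the smallest p in each direction, the 5 highest and lowest control ratios, the 5 largest differences of culture or ESC from control, the widest and narrowest ranges over replicate numbers, and a list of core factors; of other pathway genes the 1 with the smallest p per kind is named.

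Replicate numbers pair the samples: deviations of same-numbered libraries correlated in each of 12 RPF pairs of a time with control (r = 0.402 to 0.912), 12 RNA pairs (0.268 to 0.840) and 15 pairs of RPF with RNA (0.458 to 0.751). No 2 replicates agreed within sampling noise (lowest chi-square per degree of freedom 13.9). Alternatives changed the pseudocount, filter, scaling, block, test and samples. Footprints per codon were not computed because protein lengths were not used here.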

Additional observations from a re-analysis of the deposited data

How the results depend on the processing

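Under pseudocounts of 0.1 and 0.5, no filter on low values, scaling to the median gene, voom, and leaving out each replicate in turn, 0 members passed the threshold in each of the RPF, RNA and ratio comparisons in time. The replicate block also gave 0 members in each and changed no call of a member; over all genes it raised the calls from 0 to 4 in RPF at 30 min, 3, 2, 2 and 1 in RNA at 5 min, 10 min, 30 min and 4 h, and 1 in the ratio at 5 min. No planned edgeR fit, with or without block, was run; voom on whole reads, chosen after seeing the data, took its place, and footprints per codon were not run. Members called by replicate number ranged from 28 to 32 in RPF and 25 to 31 in RNA when 1 library was left out. The median ratio of the 39 members in control moved from -0.16 to -0.11 when centred on summed signals and to -0.048 with no filter, and in ESC from 0.36 to 0.24 when centred on summed signals; the cause was not tested. Of 154 single ratios of members, 63 moved by more than the replicate or counting error with a pseudocount of 1, 53 when centred on summed signals and 46 with no filter. With the pseudocount, Eif5a2 in culture turned from below control to above it (-1.48 against -1.94), and Eif1a (-1.48 against -0.87) and Eif4ebp2 (0.15 against 0.68) were no longer 2-fold below it. Of the changes in time named, none of them called, Eif4e RPF at 4 h turned to -0.0025 with voom and to -0.0015 with voom and the block. Leaving out 1 replicate changed the sign of 22 of 432 values. Their ranges were, in RPF, -0.12 to 0.0078 (Eif1ad, 10 min), -0.0028 to 0.085 (Eif1ax, 30 min), -0.094 to 0.017 (Eif1a, 30 min), -0.062 to 0.0084 (Eif2b1, 30 min), -0.012 to 0.081 (Eif2ak3, 5 min), -0.0040 to 0.090 (Eif2ak3, 4 h), -0.013 to 0.061 (Eif2ak4, 4 h) and -0.037 to 0.092 (Eif4e, 4 h). In the ratio they were -0.0072 to 0.087 (Eif1ad, 5 min), -0.025 to 0.12 (Eif6, 10 min), -0.021 to 0.10 (Eif3m, 10 min), -0.039 to 0.13 (Eif3m, 30 min), -0.014 to 0.098 (Eif3i, 4 h), -0.038 to 0.099 (Eif3g, 4 h) and -0.035 to 0.092 (Eif5a, 4 h). Members with few reads limit the precision, such as Eif4ebp2 and Eif2ak2, and so does the single library of each kind in culture and ESC.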
